A study of Canis lupus familiaris with 24 samples.

Results

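The genes of 4 drug efflux pumps, ABCB1, ABCC1, ABCC2 and ABCC5, were followed in lymph node cells of 4 dogs with B-cell lymphoma, out of 35908 transcript identifiers on the array. The pumps were represented by every non-control probe whose RefSeq identifier belongs to one of these genes, which gave 8 of 43603 probes: 2 for ABCB1 (NM_001003215), 1 for ABCC1 (NM_001002971), 2 for ABCC2 (NM_001003081) and 3 for ABCC5 (NM_001128100). Tumour cells were taken by fine-needle aspiration from peripheral lymph nodes of each dog, in a drug-sensitive and in a drug-resistant phase of the disease. Dog 1 was a male Shih Tzu aged 10 years, dog 2 a male Doberman aged 9 years, dog 3 a castrated male French Bulldog aged 3 years and dog 4 a spayed female French Bulldog aged 5 years. With 2 phases in 4 dogs there were 8 groups, and 3 one-colour arrays were hybridised for each group, 24 in total. The drugs given to each dog, and whether the 3 arrays came from separate aspirates, are not given in the sources used here, so a p-value within 1 dog reflects only how its arrays spread, which may be technical. The design asks whether the RNA of these pumps differed between the phases, and whether it did so alike in the 4 dogs.

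ABC transporters are membrane proteins that use the energy of ATP to move molecules across membranes, and several of them carry anticancer drugs out of cells. ABCB1, also called P-glycoprotein or MDR1, exports bulky, mostly hydrophobic drugs such as anthracyclines and vinca alkaloids, which are commonly used against canine lymphoma. It is also present in normal lymphocytes. ABCC1 (MRP1) and ABCC2 (MRP2) export glutathione and other conjugates along with some anticancer drugs, with ABCC2 best known from the canalicular membrane of liver cells, while ABCC5 (MRP5) exports cyclic nucleotides and nucleotide analogues.

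A level is given here as log2 of the processed spot signal minus log2 of the array's 75th percentile, so 0 is the 75th percentile of that array, and a change is the mean of the 3 resistant arrays minus the mean of the 3 sensitive arrays of a dog. The median correlation between arrays of a group was 0.992 across probes. Per array, 71.0% to 80.9% of spots were well above background and 0 were saturated. The number of arrays limits the precision. The median SD between the 3 arrays of a group was 0.076 over all kept probes. The 3 resistant arrays of dog 4 were on a slide of their own that was scanned on a later date than all others, so in that dog the phase, the slide and the scan cannot be told apart. In dogs 1, 2 and 3, 1 slide each held arrays of both phases. Of the B cell markers, 2 of 17 could be named on the array, MS4A1 (CD20) and CD40, and both were well above background on all 24 arrays, with a summed level between 54.7 and 82.7 times the array's 75th percentile. Other defining B cell markers, such as CD79A and CD79B, were not analysed here.

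The pumps differed in whether they could be measured. Probe 1 of ABCB1, the probe of ABCC1 and probes 1 and 2 of ABCC5 were well above background on all 24 arrays. Probe 2 of ABCB1 reached that mark on 12 arrays and probe 1 of ABCC2 on 11. Probe 2 of ABCC2 did so on 2 arrays and probe 3 of ABCC5 on 0 of 24. A probe entered the tests if some group had it well above background on its 3 arrays, which held for 6 of the 8 pump probes and for 34550 probes in all. A change within a dog is named a call where it reached 2-fold and its limma p, adjusted by Benjamini and Hochberg's method over all kept probes, was under 0.05.

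**Figure D1:**
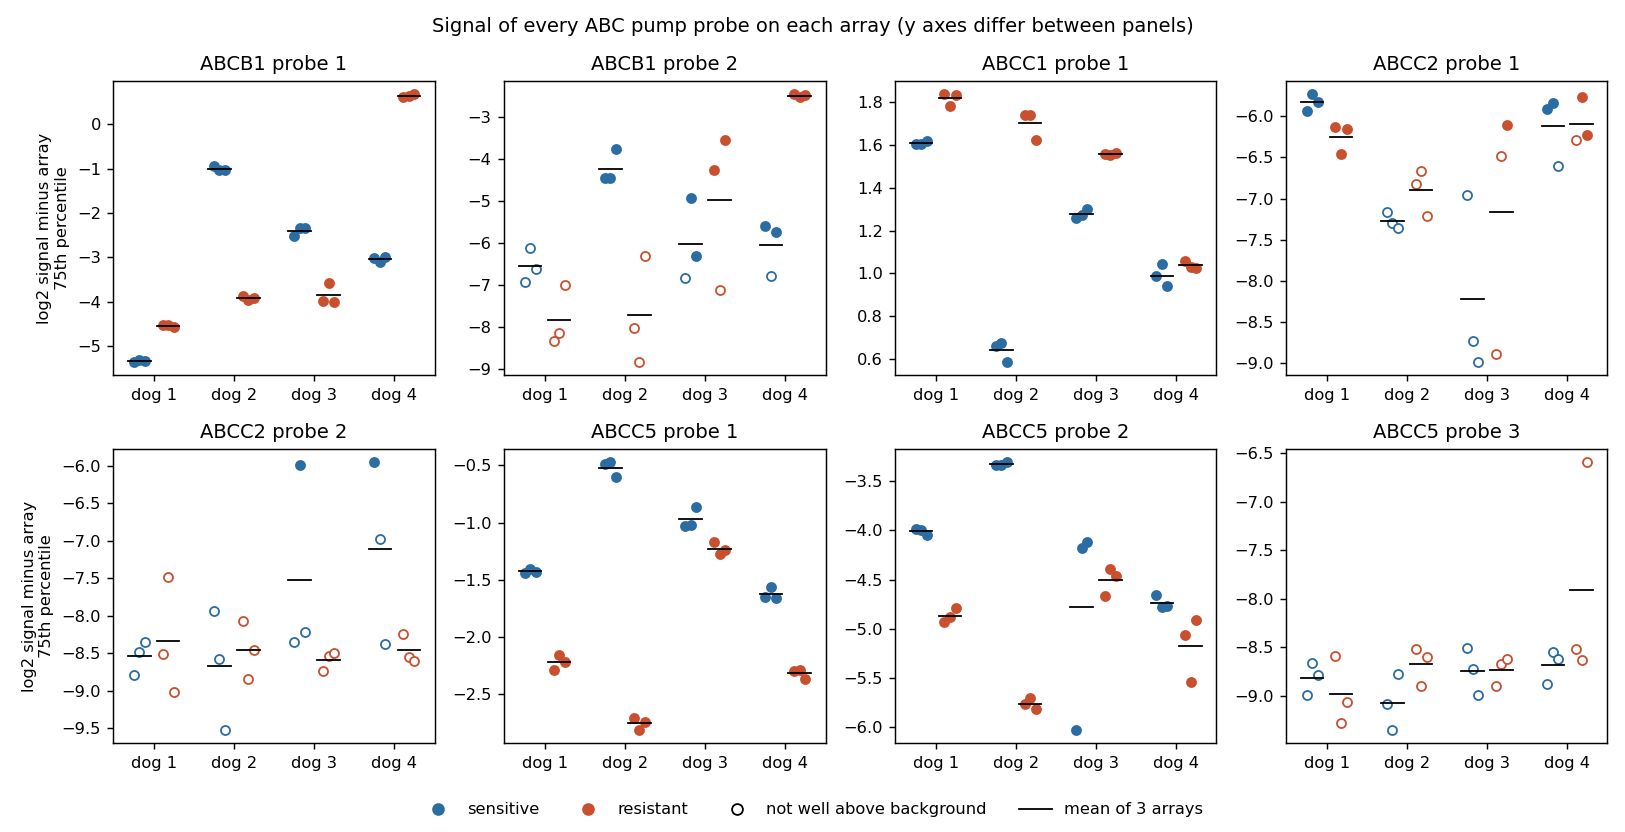
Level of each of the 8 pump probes on each array (y axis, log2 signal minus the array's 75th percentile, with a scale of its own in each panel) by dog (x axis) and phase (colour). Points are arrays, open points were not well above background and bars are the means of 3 arrays. Probe 1 of ABCB1 lay highest on the resistant arrays of dog 4, at 0.61 to 0.67, and lowest on the sensitive arrays of dog 1.

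Within single dogs, 0 of the 6 tested pump probes were called in dog 1, 5 in dog 2 (1 higher and 4 lower in the resistant phase), 1 in dog 3 (lower) and 2 in dog 4 (both higher). Of all kept probes, the share called in dogs 1 to 4 was 11.3%, 13.6%, 6.74% and 5.34%. By direction, 3.53% of all probes were higher and 10.1% lower in dog 2, 5.45% were lower in dog 3 and 3.77% were higher in dog 4. The arrays of the phases did not overlap for 6, 5, 3 and 4 of the 6 probes in dogs 1 to 4, against 63.3%, 70.4%, 57.5% and 57.1% of all probes. The split of all calls by direction depended on the scaling: 31.5%, 26.0%, 19.0% and 70.7% of calls in dogs 1 to 4 were higher in the resistant phase, and 45.3%, 33.0%, 24.4% and 47.9% after quantile normalization. Scaling to the median instead moved the median change of all probes in dog 1 (-0.05) to 0.13, and that in dog 2 (0.10) to 0.25.

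ABCB1 showed the largest change of the tested pump probes, a rise in dog 4, and its direction differed between dogs. In dog 4 its probe 1 read -3.01, -3.10 and -3.0 on the sensitive arrays and 0.61, 0.63 and 0.67 on the resistant arrays. The processed signal was 88.5 to 102 in the sensitive phase and 1065 to 1121 in the resistant phase. The level rose 12.8-fold, by 3.67 on the log2 scale (SE 0.08, limma adjusted p = 3.16e-16), with every resistant array above every sensitive one.

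In dog 2, ABCB1 moved the opposite way. Probe 1 read -0.94, -1.03 and -1.04 on the sensitive arrays and -3.86, -3.95 and -3.92 on the resistant arrays, with no overlap. This was a 7.50-fold fall, a change of -2.91 (SE 0.08, adjusted p = 7.44e-16), which with normexp background correction was 3.97-fold (-1.99) and still called. From the raw medians of the authors' deposited table it was 5.24-fold (-2.39), also called. In dog 3 the sensitive arrays read -2.52, -2.34 and -2.34 and the resistant arrays -3.97, -3.57 and -4.01. The level fell 2.73-fold, a change of -1.45 (SE 0.08, adjusted p = 5.85e-11), again with the phases apart, although the change was -0.78 and not called with normexp. Dog 1 had the lowest levels of both phases, at -5.36, -5.30 and -5.33 in the sensitive and -4.52, -4.52 and -4.58 in the resistant phase. The difference of 0.79 (SE 0.08, adjusted p = 1.59e-07) was 1.73-fold and did not reach the 2-fold mark, and with quantile normalization it was 1.05 and called.

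Ordered by group mean, probe 1 of ABCB1 was highest in the resistant phase of dog 4 (0.64), followed by the sensitive phase of dog 2 (-1.0), the sensitive phases of dog 3 (-2.40) and dog 4 (-3.04), the resistant phases of dog 3 (-3.85), dog 2 (-3.91) and dog 1 (-4.54), and the sensitive phase of dog 1 (-5.33). Of neighbours in this order, only the resistant phases of dogs 3 and 2 overlapped. The group means spanned 5.97 on the log2 scale, with SDs between arrays of 0.03 to 0.25. Thus 2 dogs had more ABCB1 signal in the sensitive than in the resistant phase, and the other 2 had less.

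Probe 2 of ABCB1 was dimmer and measured in fewer groups. In dog 4 it read -5.59, -6.78 and -5.74 on the sensitive arrays, 2 of which were well above background, and -2.46, -2.53 and -2.48 on the resistant arrays. The level rose 11.7-fold, by 3.55 (SE 0.76, limma adjusted p = 0.000937). The rise was 2.65-fold (1.40) with normexp and 3.43-fold (1.78) from the raw medians of the authors' deposited table, and called in both. In dog 2 the sensitive arrays read -4.46, -4.46 and -3.77, and no resistant array was well above background, at -8.02, -8.83 and -6.29. That signal was at least 4.43-fold lower in the resistant phase, taking the higher of each resistant array's reading and the lowest signal well above background on it. The limma adjusted p of 0.000649 belongs to the difference of the readings themselves, -3.485, and not to this bound. With normexp the difference of probe 2 in dog 2 was -0.74 and not called. The ABCB1 probes thus gave the same direction in dogs 2 and 4. Probe 2 entered the tests only through the sensitive phase of dog 2 and the resistant phase of dog 4, its 2 highest groups. Its direction in these dogs was favoured by that filter and is not independent support for probe 1.

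The ABCB1 probes did not give the same direction in dog 3. Probe 2 read -6.83, -4.92 and -6.31 on the sensitive and -4.27, -7.13 and -3.56 on the resistant arrays, with 2 of 3 well above background in each phase. The phases overlapped and the change of 1.04 (SE 0.76, adjusted p = 0.292) was not called, but without resistant array 2 it was 2.11 with an adjusted p of 0.0137, opposite in sign to probe 1. In dog 1 no array of either phase was well above background for probe 2. Over the 8 group means the probes correlated with r = 0.851, a description over groups that share dogs and include dim readings.

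**Figure D2:**
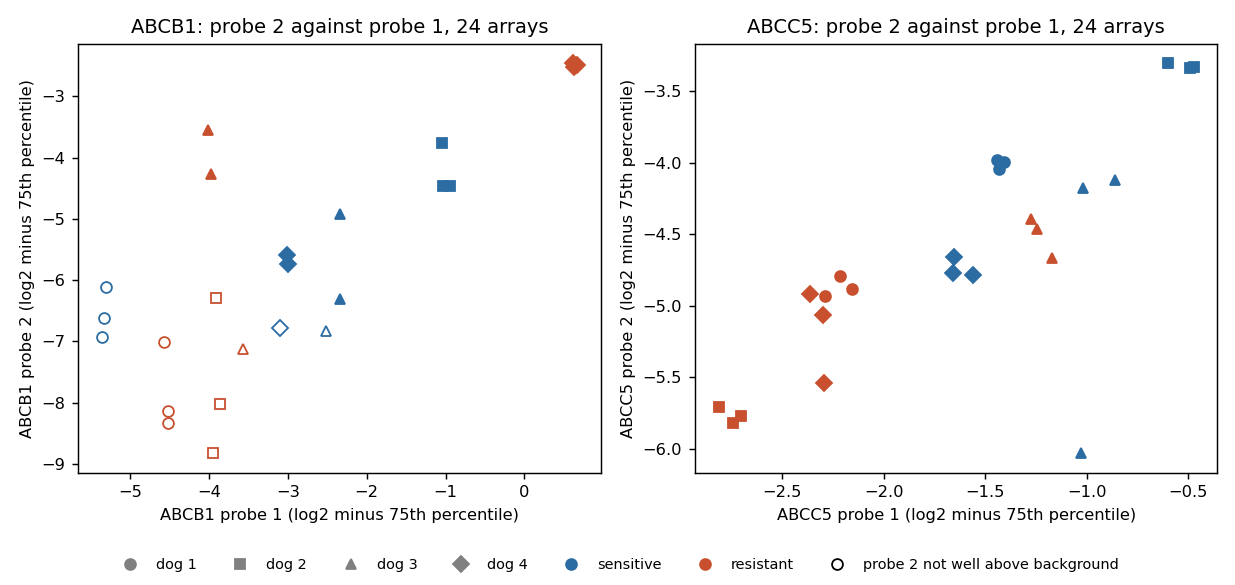
Level of probe 2 (y axis) against level of probe 1 (x axis) of ABCB1 (left) and ABCC5 (right) on 24 arrays, both in log2 signal minus the array's 75th percentile. Symbols are dogs, colours are phases and open symbols mark arrays on which probe 2 was not well above background. The resistant arrays of dog 4 are at the top right for ABCB1, and sensitive array 1 of dog 3 lies apart for ABCC5, at -6.03 on probe 2.

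The changes of ABCB1 differed between dogs. The dog-by-phase F-test gave an adjusted p of 5.26e-18 for probe 1 and 7.95e-05 for probe 2, a test that 80.5% of all kept probes passed. Each of the 6 pairs of dogs differed in the change of probe 1, from 1.46 between dogs 3 and 2 (SE 0.11, adjusted p = 4.37e-09) to 6.58 between dogs 4 and 2 (SE 0.11, adjusted p = 3.12e-18). For probe 2, limma adjusted p was 0.0860 between dogs 2 and 1, 0.0807 between dogs 3 and 1 and 0.0669 between dogs 4 and 3. Its remaining pairs were under 0.05. In all, 36 such pairs were tested over the 6 pump probes, each adjusted over all kept probes, and of all probes 60.9% passed between dogs 2 and 1, 53.9% between dogs 3 and 1, 56.0% between dogs 4 and 1, 52.4% between dogs 3 and 2, 56.7% between dogs 4 and 2 and 46.2% between dogs 4 and 3. Probe 1 of ABCB1 was called in opposite directions in at least 2 dogs, as were 3.56% of all kept probes. Probe 2 was too, but it entered the tests only through the 2 groups behind those calls and is no further case.

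ABCC1 had group means that spanned 1.18 on the log2 scale, the narrowest span of the probes measured on every array, and its largest difference was in dog 2. There the sensitive arrays read 0.66, 0.67 and 0.58 and the resistant arrays 1.74, 1.74 and 1.63. The level rose 2.09-fold, by 1.06 (SE 0.03, limma adjusted p = 3.30e-15). The rise lay at the edge of the 2-fold mark: it was 0.99 and not called after quantile normalization, and 0.96 relative to the median change of all probes.

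In dog 1 the sensitive arrays of ABCC1 read 1.61, 1.60 and 1.62 and the resistant arrays 1.84, 1.78 and 1.83. In dog 3 they read 1.26, 1.27 and 1.30 against 1.56, 1.55 and 1.56. The resistant arrays lay above the sensitive ones in both dogs, by 0.21 (SE 0.03, adjusted p = 2.83e-05) and 0.28 (SE 0.03, adjusted p = 1.10e-06), which is 1.16-fold and 1.22-fold and under the mark for a call. With normexp the difference in dog 1 was 0.05 (adjusted p = 0.539). In dog 4 the phases overlapped, at 0.99, 1.04 and 0.94 against 1.06, 1.03 and 1.03. The difference of 0.05 there (SE 0.03, adjusted p = 0.252) was -0.01 with median scaling.

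The highest group mean of ABCC1 was that of the resistant phase of dog 1 (1.82), followed by the resistant phase of dog 2 (1.70), the sensitive phase of dog 1 (1.61), the resistant and sensitive phases of dog 3 (1.56 and 1.28), both phases of dog 4 (1.04 and 0.99), which overlapped, and the sensitive phase of dog 2 (0.64). Processed signal was between 1378 and 3163 on every array. The change in dog 2 exceeded that in each other dog by 0.78 to 1.02 (SE 0.05, adjusted p of 7.99e-11 or lower), while the changes in dogs 3 and 1 differed by 0.07 (SE 0.05, adjusted p = 0.201). The dog-by-phase F-test gave an adjusted p of 3.61e-12.

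ABCC2 was near background in these cells. Its probe 1 was well above background on all 3 arrays of both phases in dog 1 alone. The sensitive arrays of that dog read -5.93, -5.73 and -5.83 and the resistant arrays -6.13, -6.46 and -6.16. The phases did not overlap, and the change of -0.42 (SE 0.55, limma adjusted p = 0.539) was not called. The SE is pooled over all groups, while the SDs between arrays in dog 1 were 0.10 and 0.18. In dog 4, where 2 arrays of each phase were well above background, the sensitive arrays read -5.92, -5.84 and -6.60 and the resistant arrays -6.29, -5.76 and -6.23, a change of 0.02 (SE 0.55, adjusted p = 0.977).

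In dog 2 no array was well above background for probe 1 of ABCC2, and in dog 3 only 1 resistant array was, so no fold is given. The readings of dog 3 scattered widely, at -6.96, -8.73 and -8.99 on the sensitive and -8.88, -6.49 and -6.11 on the resistant arrays, and the change passed the call without sensitive array 1 (1.70, adjusted p = 0.0142) or without resistant array 1 (1.93, adjusted p = 0.000935), although it is a difference between readings at background. Processed signal of the probe was 1.56 to 14.9 over all arrays. Probe 2 of ABCC2 had group means between -8.68 and -7.10 and was well above background on 1 sensitive array of dog 3 and 1 of dog 4. In the fit to all arrays ABCC2 was called in no dog. From the raw medians of the authors' deposited table, the difference of probe 1 in dog 1 was -0.23 with a limma adjusted p of 0.0355, under 2-fold.

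ABCC5 was lower in the resistant phase in all 4 dogs by its brightest probe, which is spotted 5 times on each array. The fall was largest in dog 2, where probe 1 read -0.49, -0.47 and -0.60 on the sensitive and -2.70, -2.81 and -2.74 on the resistant arrays. This was a 4.69-fold fall, a change of -2.23 (SE 0.05, limma adjusted p = 2.36e-17), and the only ABCC5 change of at least 2-fold together with that of probe 2 in the same dog. The 5 spots of an array had an SD of 0.04 to 0.23, with a median of 0.08.

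In dog 1 the sensitive arrays of ABCC5 probe 1 read -1.44, -1.41 and -1.43 and the resistant arrays -2.29, -2.15 and -2.21, a difference of -0.79 (SE 0.05, adjusted p = 1.65e-10). Dog 4 had a difference of -0.69 (SE 0.05, adjusted p = 2.80e-09), from -1.65, -1.56 and -1.66 to -2.30, -2.29 and -2.36. The smallest difference was that of dog 3, -0.26 (SE 0.05, adjusted p = 0.000243), from -1.03, -1.02 and -0.86 to -1.17, -1.27 and -1.24. In each dog all resistant arrays lay below all sensitive arrays, and the order of the 8 groups, with no overlap between neighbours, ran from the sensitive phases of dogs 2 (-0.52) and 3 (-0.97), the resistant phase of dog 3 (-1.23) and the sensitive phases of dogs 1 (-1.43) and 4 (-1.62) down to the resistant phases of dogs 1 (-2.22), 4 (-2.32) and 2 (-2.75).

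Probe 2 of ABCC5 gave a fall of similar size in dog 2, from -3.34, -3.33 and -3.31 to -5.77, -5.71 and -5.82, a change of -2.44 (SE 0.32, limma adjusted p = 2.56e-06) that was 5.42-fold. With normexp background correction the change was -0.92 and not called. In dog 1 the sensitive arrays read -3.98, -3.99 and -4.04 and the resistant arrays -4.93, -4.88 and -4.79, a difference of -0.86 (SE 0.32, adjusted p = 0.0293) that was -0.25 (adjusted p = 0.0897) with normexp. In dog 4 they read -4.66, -4.78 and -4.77 against -5.06, -5.54 and -4.92, a difference of -0.44 (SE 0.32, adjusted p = 0.281).

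Dog 3 was the exception for probe 2. Its sensitive arrays read -6.03, -4.18 and -4.12 and its resistant arrays -4.67, -4.39 and -4.46, a difference of 0.27 (SE 0.32, adjusted p = 0.536) with overlapping phases. Sensitive array 1, which had more spots marked as outliers than any other array (195, against 6 at the lowest), was the low one, and without it the difference was -0.36 with an adjusted p of 0.0247. The SE of 0.32 is shared by all dogs and includes this array. Leaving it out of the fit of every dog, a setting chosen after seeing the data, gave dog 1 an SE of 0.11 and a limma adjusted p of 3.49e-06. The adjusted p of the dog-by-phase F-test for probe 2 was then 6.44e-09. Probe 3 of ABCC5 was at background on every array, with a signal of 1.48 to 7.01. The group means of probes 1 and 2 correlated with r = 0.858 over the 8 groups.

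The change of ABCC5 probe 1 in dog 2 was larger than in each other dog, by 1.44 (dog 1), 1.97 (dog 3) and 1.54 (dog 4), each with an SE of 0.07 and an adjusted p of 4.17e-12 or lower. Dogs 4 and 1 differed by 0.10 (SE 0.07, adjusted p = 0.244). The F-test over the 4 dogs gave adjusted p = 1.38e-13 for probe 1 and 0.000249 for probe 2, and 0.330 for probe 1 of ABCC2. The last was 0.0199 with normexp and 0.0153 from the raw medians of the authors' deposited table, where all 6 tested pump probes then passed. So did 26840 and 28848 of the 34550 kept probes in these settings. Probe 1 of ABCC2 was well above background on only 11 arrays, so its F-test includes readings at background.

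**Figure D3:**
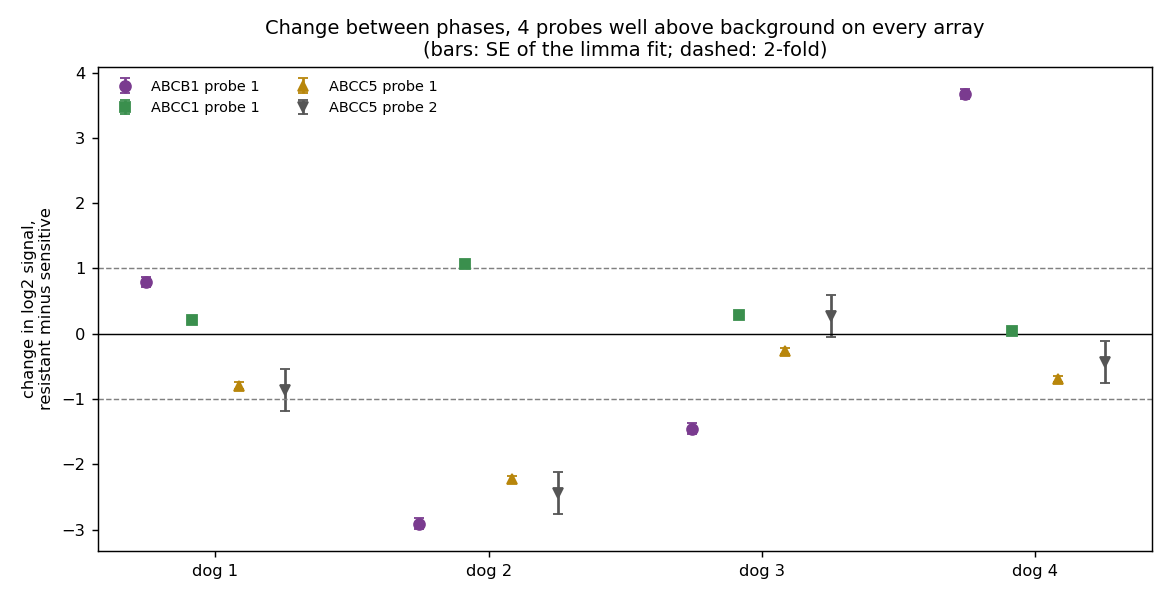
Change between phases (y axis, resistant minus sensitive, log2) of the 4 probes that were well above background on all 24 arrays, by dog (x axis). Points are differences of the means of 3 arrays, bars are standard errors of the limma fit and dashed lines mark 2-fold. ABCB1 lies above 0 in dogs 1 and 4 and below it in dogs 2 and 3, while probe 1 of ABCC5 lies below 0 in all 4 dogs.

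Across the 4 dogs, with the dog as the replicate and as a block, no pump probe reached an adjusted p under 0.05 in limma, and neither did any of the 34550 kept probes (0%, against 2122 at an unadjusted p under 0.05). ABCC5 probe 1 had a mean of -1.14 ± 0.49 (SD, n = 4) in the sensitive and -2.13 ± 0.64 in the resistant phase, a mean change of -0.99 (SE 0.35, unadjusted p = 0.0344, limma adjusted p = 0.777), with the same sign in 4 of 4 dogs. ABCC5 probe 2 had a mean change of -0.87 (SE 0.45, adjusted p = 0.839), lower in 3 of 4 dogs. Without dog 2 these means were -0.58 and -0.34. For ABCC1 the means were 1.13 ± 0.41 and 1.53 ± 0.35, a mean change of 0.40 (SE 0.21, adjusted p = 0.839) that was above 0 in 4 of 4 dogs, or in 3 of 4 with median scaling, and that was 0.18 without dog 2.

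Of all kept probes, 7.36% were lower and 8.90% higher in all 4 dogs, so a like sign in every dog was not rare. For ABCB1 probe 1 the means were -2.94 ± 1.80 and -2.92 ± 2.39. Its mean change of 0.03 (SE 1.11, adjusted p = 0.997) combined 2 dogs above and 2 below 0, and it was -1.19 without dog 4, -0.23 without dog 1, 0.52 without dog 3 and 1.0 without dog 2.

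The slide on which an array lay could be held apart from the phase in dogs 1, 2 and 3. Within the slide that held both phases of a dog, the change of ABCB1 probe 1 was 0.81 in dog 1 (3 sensitive arrays and 1 resistant array), -2.87 in dog 2 (1 and 3) and -1.57 in dog 3 (3 and 1). The same comparison gave 0.23, 1.12 and 0.28 for ABCC1 and -0.86, -2.15 and -0.20 for ABCC5 probe 1. The phases did not overlap for these probes in these dogs, so each comparison had to keep the sign of the difference over all arrays. Each rests on 1 array of 1 phase, and only its size could have changed. A fit with the slide as a block draws on the same slide in each dog. It therefore had to give the same values and is no separate check. In dog 4 the resistant arrays share no slide with other arrays, so a fit with the slide as a random block cannot part slide from phase. Its change of ABCB1 in that dog was 3.69 for probe 1 and 3.39 for probe 2. The local background around the pump spots of that dog was 19.0 to 25.0 on the sensitive and 28.0 to 34.0 on the resistant arrays, and its part in the result was not tested.

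**Figure D4:**
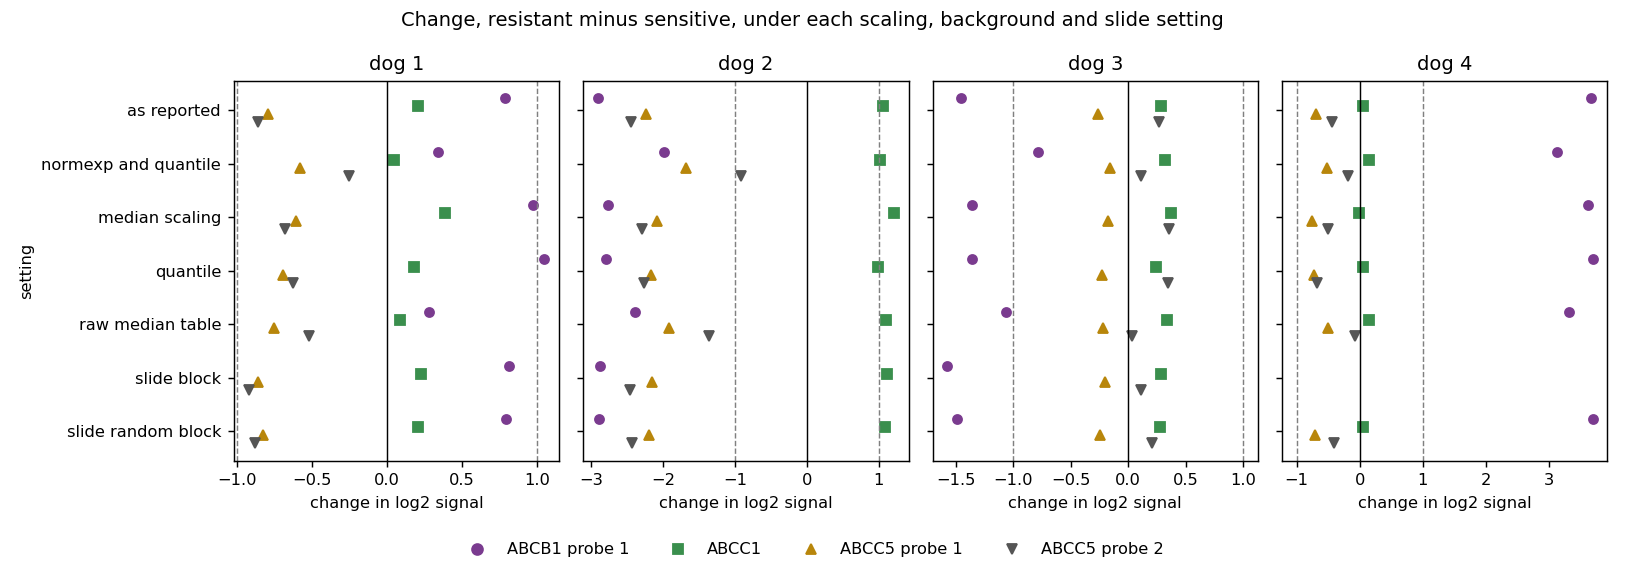
Change between phases (x axis, resistant minus sensitive, log2) under 7 settings (y axis) for the 4 probes measured on all arrays, 1 panel per dog with a scale of its own. Dashed lines mark 2-fold. The slide as a fixed block could not be fitted in dog 4, where the random block cannot part slide from phase. The sign of ABCB1 stays the same in each dog under every background and scaling setting shown, with dog 1 between 0.28 and 1.05 and dog 4 between 3.13 and 3.69.

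An aspirate holds other cells beside lymphoma cells, and several of them carry ABC pumps, so markers of other cell types were summed in each group. In these bulk samples, fewer cells of a type and less RNA per cell cannot be told apart. In dog 2, where 5 pump probes were called, NK and cytotoxic markers (KLRD1 and CCL5, the 2 of 11 that could be named) had a summed level of 36.1 to 37.0 times the 75th percentile in the sensitive and 0.457 to 0.510 in the resistant phase. T cell markers (5 of 13) went from between 4.41 and 4.65 to between 0.273 and 0.284 in that dog, with CD28 and ICOS on no resistant array well above background. All 5 T cell markers and both NK markers were called lower in dog 2. Macrophage markers there were 6.61 to 6.91 and 4.97 to 5.09, neutrophil markers 0.0922 to 0.144 and 1.09 to 1.13, stromal and endothelial markers 9.23 to 9.45 and 4.66 to 5.01, with DCN on no resistant array well above background, and B cell markers 73.6 to 77.8 and 78.2 to 82.7. The part of these cells in the lower ABCB1 and ABCC5 signal of dog 2 was not tested.

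In dog 4, where ABCB1 rose, the same lists had 0.399 to 0.494 against 0.492 to 0.572 for NK and cytotoxic markers and 0.350 to 0.416 against 0.502 to 0.537 for T cell markers, and 0 of these 7 genes were called. Macrophage markers (3 of 13) were 1.24 to 1.33 in the sensitive and 1.16 to 1.21 in the resistant phase, neutrophil markers (4 of 11) 0.480 to 0.591 and 0.429 to 0.449, and stromal and endothelial markers (8 of 15) 7.09 to 7.44 and 6.20 to 6.37. One gene of these lists was called in dog 4, the stromal chemokine CXCL12, with a change of -1.69. B cell markers were 61.3 to 63.8 and 60.6 to 62.2 there. Their part in the ABCB1 result was not tested.

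In dog 3, where ABCB1 probe 1 fell, NK and cytotoxic markers were 0.691 to 0.757 in the sensitive and 0.355 to 0.373 in the resistant phase, T cell markers 0.482 to 0.527 and 0.315 to 0.429, with ICOS on no resistant array well above background, macrophage markers 7.41 to 7.45 and 3.30 to 3.42, neutrophil markers 3.17 to 3.27 and 0.121 to 0.159, stromal and endothelial markers 13.8 to 14.4 and 6.14 to 6.46, and B cell markers 58.7 to 60.9 and 67.7 to 72.2. In dog 1, NK and cytotoxic markers were 1.23 to 1.40 in the sensitive and 0.188 to 0.212 in the resistant phase, T cell markers 0.394 to 0.459 and 0.248 to 0.275, with ICOS on no array and CTLA4 on no resistant array well above background, and macrophage markers 3.28 to 3.40 and 2.04 to 2.09. Neutrophil markers of dog 1 were 2.16 to 2.35 and 0.239 to 0.296, stromal and endothelial markers 4.43 to 4.52 and 2.39 to 2.41, with KDR on no resistant array well above background, and B cell markers 54.7 to 56.3 and 62.9 to 67.0. ABCC5 probe 1 was lower in the resistant phase of all 4 dogs. The T cell and NK sums were lower there in dogs 1, 2 and 3 and higher in dog 4, where the NK ranges overlapped narrowly, while the macrophage and stromal sums were lower in all 4 dogs. A sum is weighted to its brightest genes, and members differed. FCGR1A was called higher in dog 2 (1.62) and CD163 was higher in dog 1 (0.53), with the other macrophage markers of those dogs lower. Of the 4 neutrophil markers in dog 1, ELANE was called higher (1.44, with 1 sensitive array well above background) and 3 were called lower. Of the B cell markers, CD40 was higher and MS4A1 lower in dog 1 (0.35 and -0.29) and in dog 4 (0.04 and -0.28). In dog 4, CD163 (0.33) and FCGR1A (0.46) were higher and CD86 (-0.17) lower. Of the stromal list in dog 4, DCN, KDR, SELE and VWF were higher and the rest lower. The part of these cells in the ABCC5 results was not tested.

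**Figure D5:**
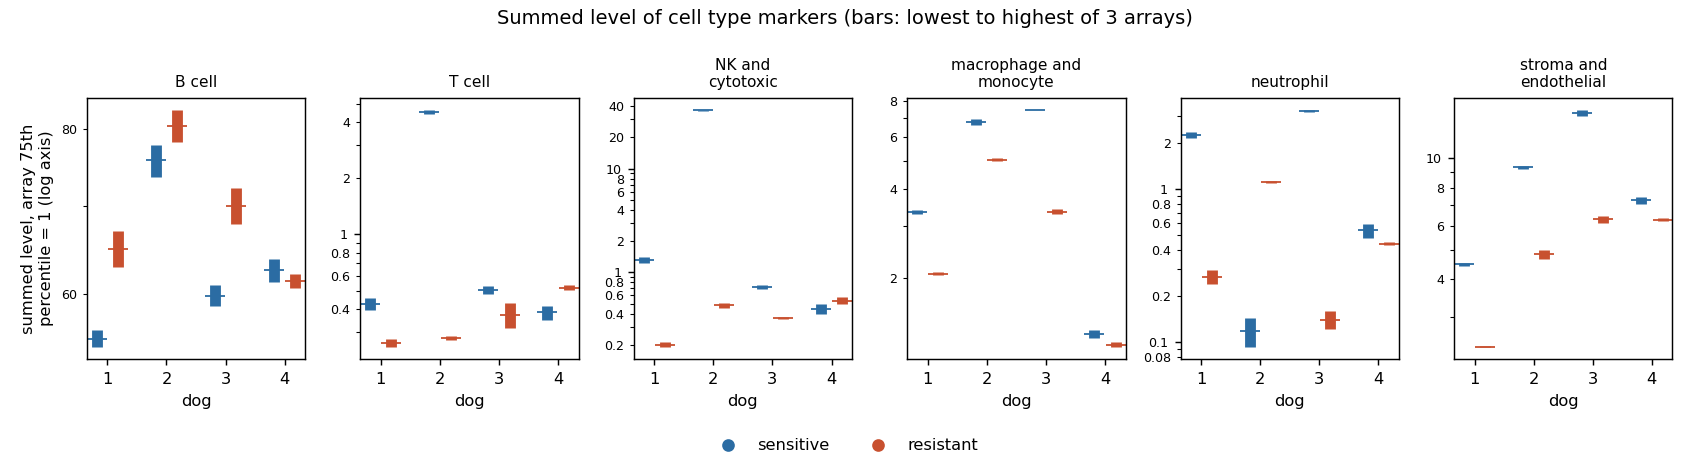
Summed level of the named markers of 6 cell types (y axis, log scale, in multiples of the array's 75th percentile, with a scale of its own in each panel) by dog (x axis) and phase (colour). Thick bars span the lowest to the highest of 3 arrays and thin lines mark the middle of that span. The NK and cytotoxic sum of dog 2 falls from 36.1 to 37.0 in the sensitive phase to 0.457 to 0.510 in the resistant phase.

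The genes whose pattern was most like that of each pump were taken from 717 named genes by Pearson's r over the 8 group means, which share dogs and arrays, so the values are a description. For ABCB1 probe 1 they included INSL3 (r = 0.866), the transcription factor SOX9 (0.856), the potassium channel subunit KCNMB1 (0.837) and the cytokine TNF (0.823). For ABCC1 they were TLR9, a receptor for microbial DNA (0.888), SRP72, part of the signal recognition particle (0.849), PDE6B (0.847), TPMT, which methylates thiopurine drugs (0.844), and SLC35A1 (0.833). For ABCC5 they were the cytokine IL18 (0.919), the collagen gene COL1A1 (0.906), the NK cell receptor KLRD1 (0.886), ZFPM2 (0.870) and DMD (0.848).

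For ABCC2, whose probe was mostly at background, the closest genes were MSX2 (0.951), CDC42SE1 (0.944), PLA2G1B (0.937), ADRB3 (0.912) and BRD2 (0.884). Among the pumps themselves, the group means of ABCB1 probe 1 and ABCC1 had r = -0.778, those of ABCC1 and ABCC5 probe 1 r = -0.535, and those of ABCB1 probe 1 and ABCC5 probe 1 r = 0.119. In dog 2, ABCC1 rose while ABCB1 and ABCC5 fell.

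Other genes of drug transport and handling were few among the named features, since 832 of 35908 identifiers (2.32%) matched a gene symbol. A gene counts as measured here if it could be named and had a kept probe. Of 45 other ABC transporters, 2 were measured. CFTR, an ABC protein that works as a chloride channel, fell in dog 3, with a change of -5.46 (SE 0.79, limma adjusted p = 1.41e-05) that was -2.88 with normexp and -3.55 from the raw medians of the authors' deposited table, called in both. In dog 2, where 1 of 3 sensitive arrays was well above background, it rose with a change of 3.02 (SE 0.79, adjusted p = 0.00282), which was not called with the slide as a block (2.84, adjusted p = 0.0519). ABCA4, a transporter of retinal photoreceptors, was not called in any dog. Other drug pumps, such as ABCG2, were not analysed here.

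Of 24 genes of glutathione conjugation and redox balance, only the redox enzymes GPX1 and TXNRD1 were measured and 0 were called. The enzymes of this list that form the conjugates carried by ABCC pumps could not be named on the array. Of 21 regulators of pump genes, 1 was measured: PPARG, a nuclear receptor of lipid metabolism, rose in dog 2 by 1.63 (SE 0.05) and fell in dog 3 by 1.68, with changes of 0.84 in dog 1 and 0.35 in dog 4. Of 32 genes of drug uptake and drug metabolism, 8 were measured, with 0 called higher in any dog, 1 called lower in dog 1 and 3 in dog 3. These were the sulfotransferase SULT1A1 (-1.01 in dog 1 and -1.27 in dog 3) and the cytochrome P450 genes CYP3A12 (-1.44 in dog 3, from 2 sensitive arrays, since a spot marked as an outlier was left out) and CYP3A26 (-1.39 in dog 3, limma adjusted p = 0.0295), 2 close paralogs whose signals may not be separable. SLC29A1, a nucleoside carrier that takes up cytarabine, had changes of 0.63, 0.88, -0.08 and 0.37 in dogs 1 to 4 and was not called.

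Of 15 targets and repair genes of chemotherapy drugs, 1 was measured, MGMT, which repairs alkylated guanine, and it fell in dog 2 by 1.60 (SE 0.15, limma adjusted p = 2.37e-08). The median change of the 8 uptake and metabolism genes was -0.21, -0.03, -0.48 and 0.28 in dogs 1 to 4, beside -0.11, -0.07, -0.01 and 0.09 over all named genes. With normexp background correction the calls of CFTR (0.57) and MGMT (-0.46) in dog 2, PPARG (-0.79) and CYP3A26 (-0.47) in dog 3 and SULT1A1 (-0.54) in dog 1 were lost. SULT1A1 in dog 1 was also under 2-fold without sensitive array 1 (-0.99) or resistant array 1 (-0.98), and CYP3A26 lost its call without any 1 of the 6 arrays of dog 3 (-1.44 to -1.31).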

How the data were processed

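Each array was hybridised with Cy3-labelled RNA made from total RNA by a low-input amplification kit, per the labels' protocols. The scanner files hold spot intensity, deposited by the authors as output of Agilent Feature Extraction (version 10.7.3.1, per the submitters' processing notes). The processed signal is an intensity already corrected for background within an array and, per the file headers, not normalised between arrays. The authors' deposited value table equalled the raw median intensity of every spot (largest difference 0; column medians 97.0 to 141), so it is linear and uncentred, with no unknown direction. The build was not given in the sources used here.

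Log2 processed signal was scaled to the 75th percentile of each array. Spots marked as outliers were left out and spots of a probe averaged. Identifiers were matched to gene symbols in RefSeq's table for UU_Cfam_GSD_1.0, without coordinates. limma 3.58.1 (R 4.3.3) was fitted to all 34550 kept probes, within dogs on 24 arrays in 8 groups (16 residual degrees of freedom) and across dogs on 8 means with the dog as a block (3 residual degrees of freedom). Tests were two-sided. Alternatives were normexp background correction (offset 50) with quantile normalization, median scaling, quantile normalization, other filters, the brightest probe, the deposited table, slide and replicate blocks and each array or dog left out. Scripts were tested on simulated data. All pump probes are described. Of each other list, up to 4 called genes of largest change were named, by their brightest probe, and the 5 genes most like each pump, of which 1 for ABCB1 is not reported here. ABCA4, GPX1, TXNRD1 and SLC29A1 were named after their values were seen, as were the cell type markers named. The pumps, lists and tests were chosen with earlier results of these data known.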

Additional observations from a re-analysis of the deposited data

Results flagged for a closer look

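In the resistant phase, the mean level of ABCB1 probe 1 in dog 4 stood apart from the 3 other dogs: its gap to the nearest of them was 0.867 of the whole range, above the critical value of 0.829 for 4 values. It was the only mark among 18 such comparisons over the pump probes and the changes, which share genes and arrays. Chance would mark about 1 in 20, so this is about what chance would give. The 3 arrays behind that mean were alone on their slide, and the part of the slide was not tested.

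The change between phases differed between dogs for 5 of the 6 tested probes, with limma F-test adjusted p-values of 5.26e-18 and 7.95e-05 for probes 1 and 2 of ABCB1, 3.61e-12 for ABCC1, and 1.38e-13 and 0.000249 for probes 1 and 2 of ABCC5. The F-test passed for 80.5% of all kept probes, and its error is the spread between arrays within the groups, pooled over the dogs.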

How the results depend on the processing

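The signs of the ABCB1 probe 1, ABCC1 and ABCC5 probe 1 changes held in each dog under every background and scaling setting run. The exception was ABCC1 in dog 4, at -0.013 with median scaling. A filter leaves the change as it is. Where the phases do not overlap, neither leaving out 1 array nor comparing within 1 slide can turn the sign. Such settings are no check of it. Of these probes, the phases overlapped only for ABCC1 in dog 4, where the change was 0.02 to 0.07 with 1 array left out. In dog 4 no slide setting could part slide from phase. ABCC5 probe 2 in dog 3 was between -0.36 and 0.60 with 1 array left out, and turned to -0.36 without sensitive array 1, also when that array was left out for every dog, a setting chosen after seeing the data. ABCC2 probe 1 in dog 4 turned to -0.031 (normexp), -0.037 (median scaling) and -0.32 (quantile), and with 1 array left out it was between -0.22 and 0.16, below 0 without sensitive array 3 or resistant array 2. The mean change of ABCB1 probe 1 turned to -0.23 without dog 1 and -1.19 without dog 4. The cause was not tested.

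The number of pump probes called was 1 in dog 1 (quantile), 3 in dog 2 (normexp, or the brightest probe alone, which tests fewer probes), 0 in dog 3 (normexp) and between 1 and 2 there when 1 array was left out, with 2 without sensitive array 1, resistant array 1 or resistant array 2, and 1 in dog 4 (only probes above background on all 24 arrays, or the brightest probe). With the brightest probe alone, 3 of 4 pump probes differed between dogs, as did 21840 of 27722 probes in all. Calls over all probes in dogs 1 to 4 numbered 1005, 1871, 710 and 223 with normexp, 1795, 2591, 1034 and 535 among probes above background on all arrays, and 1521, 2625, 1069 and 297 from the authors' deposited table. They numbered 3021 in dog 4 without a filter. CYP3A12 in dog 3 could not be computed with normexp, because of a missing spot.

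Same-numbered arrays of a dog did not deviate together (correlations from -0.119 to 0.0876), so the numbers do not pair the arrays. With the replicate block, the counts of called pump probes within dogs were 0, 5, 1 and 2, as without it. Across dogs, a fit to 24 arrays with the replicate block, which takes arrays as replicates, called 3 pump probes and 9809 probes in all, and one with the group as a random block called 2 and 2186.

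Of the named genes outside the pumps, SULT1A1 in dog 1, CFTR and MGMT in dog 2 and CYP3A26 and PPARG in dog 3 lost their call in at least 1 setting, at -0.54, 0.57, -0.46, -0.47 and -0.79 with normexp. Signal over background limits ABCC2, probe 2 of ABCB1 and probe 3 of ABCC5, and 4 dogs limit every statement across dogs.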
